A study of Mus musculus with 8 samples.

Results

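The genes described here encode subunits of the nicotinic acetylcholine receptor: Chrna3, Chrna5 and Chrnb4, which neighbour each other on chromosome 9, and Chrna1, Chrna2, Chrna4, Chrna6, Chrna7, Chrnb2 and Chrnb3, which lie at other loci. They are 10 of the 24062 genes in the count tables, and their 68 exon bins are among 219958 bins. They were taken by name, and the list was drawn up from the difference between mutant and control libraries in these same data. Mutant against control values of the 10 genes are therefore a description, with no test.

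Nicotinic receptors are ion channels of pentameric form that open when acetylcholine binds, and their pharmacology is set by which alpha and beta subunits assemble. Receptors built on the alpha3 subunit with beta4, with or without the accessory alpha5 subunit, are best known from autonomic ganglia and the medial habenula. Receptors of alpha4 with beta2 are the main high-affinity nicotine binding sites of the brain, and alpha7 forms channels on its own. The neighbouring trio of genes is conserved as a cluster in mammals, and shared control of its members has been studied in peripheral neurons.

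Whole cerebella of single pups were collected at postnatal day 2 from mice of a mixed C57BL/6 strain, and polyA RNA was sequenced. The 4 mutant pups were Math1-Cre; Sufu flox/- and the 4 control littermates were Sufu flox/+, per the series text. Parents were Math1-Cre; Sufu +/- and Sufu flox/flox; Math1 mgfp/mgfp, so by that cross every pup carried a floxed Sufu allele and an mgfp allele of Math1. The sources used here do not say whether control pups carried Cre. Math1-Cre acts in the lineage of cerebellar granule cells, so only part of the tissue was recombined, while all mutant cells carried the null allele. Sufu encodes an inhibitor of Hedgehog signalling. The sample titles hold a letter, P or R, shared by 2 mutant and 2 control libraries each. Mutants 1 and 2 and controls 1 and 2 carry P. The sources used here do not say what the letter stands for.

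Libraries held 21479565 to 26638284 counts in genes. Sufu had 31.7, 34.4, 36.8 and 39.8 CPM (the count scaled to library size after TMM correction) in mutants 1 to 4, against 47.7, 51.0, 55.9 and 60.7 CPM in controls 1 to 4. Every mutant lay below every control. The floxed exons are not named in the labels, so loss by Cre and loss through the null allele cannot be told apart in this level. Counts of 4 Y-linked genes summed to 5374 in mutant 2 and 5729 in mutant 4, and to between 0 and 5 in each of the other libraries, so sex was not balanced between the groups. The summed level of 10 hindbrain Hox genes ran from 6.13 to 160 CPM in mutants and from 112 to 191 CPM in controls, with mutant 4 the lowest and mutant 2 next. These genes mark tissue caudal to the cerebellum. RNA was taken from whole tissue, so fewer cells of a type and less RNA per cell cannot be told apart in any value below.

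In the RefSeq annotation of build GRCm38.p6, the order of protein-coding genes on chromosome 9 is Hykk, AY074887, Psma4, Chrna5, Chrna3, Chrnb4, Ube2q2, Fbxo22 and Nrg4. Chrna5 is transcribed on the plus strand, while Chrna3 and Chrnb4 are on the minus strand. Chrna5 and Chrna3 overlap in that annotation, and the sources used here do not say whether the counting used strand, so reads from the overlap could be counted for either gene or left out. The deposited counts are on mm9, and RefSeq served only for gene order and the sequences that follow.

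Promoter windows of 250 bases before and 50 after a gene's start are printed for the 3 clustered genes, because their levels moved apart although the genes adjoin. They are from RefSeq, build GRCm38.p6, and read 5′ to 3′ on the gene's own strand. The windows are chr9:55026513-55026812 (minus) for Chrna3, chr9:55048495-55048794 (minus) for Chrnb4, and chr9:54980630-54980929 and chr9:54981238-54981537 (plus) for the 2 starts listed for Chrna5. Capitals mark matches, on either strand, to the GC box GGGCGG and the E-box CANNTG, where N is any base.
Chrna3: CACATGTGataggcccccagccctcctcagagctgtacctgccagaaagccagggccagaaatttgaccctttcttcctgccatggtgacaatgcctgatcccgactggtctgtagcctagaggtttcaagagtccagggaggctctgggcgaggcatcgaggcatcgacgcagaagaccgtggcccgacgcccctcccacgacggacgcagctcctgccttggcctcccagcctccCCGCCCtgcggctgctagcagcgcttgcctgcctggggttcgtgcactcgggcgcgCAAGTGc
Chrnb4: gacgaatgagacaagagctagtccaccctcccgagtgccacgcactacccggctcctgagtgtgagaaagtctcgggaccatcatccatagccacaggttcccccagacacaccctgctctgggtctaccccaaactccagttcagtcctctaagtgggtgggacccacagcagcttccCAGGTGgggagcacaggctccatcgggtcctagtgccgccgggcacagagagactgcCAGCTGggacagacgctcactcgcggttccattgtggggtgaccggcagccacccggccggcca
Chrna5, start nearer Psma4: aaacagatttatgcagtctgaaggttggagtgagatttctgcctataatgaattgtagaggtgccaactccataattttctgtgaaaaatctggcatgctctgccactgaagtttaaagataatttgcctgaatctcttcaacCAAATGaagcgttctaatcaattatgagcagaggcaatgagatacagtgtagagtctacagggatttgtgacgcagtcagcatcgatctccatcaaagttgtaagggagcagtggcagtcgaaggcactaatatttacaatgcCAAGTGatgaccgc
Chrna5, start nearer Chrna3: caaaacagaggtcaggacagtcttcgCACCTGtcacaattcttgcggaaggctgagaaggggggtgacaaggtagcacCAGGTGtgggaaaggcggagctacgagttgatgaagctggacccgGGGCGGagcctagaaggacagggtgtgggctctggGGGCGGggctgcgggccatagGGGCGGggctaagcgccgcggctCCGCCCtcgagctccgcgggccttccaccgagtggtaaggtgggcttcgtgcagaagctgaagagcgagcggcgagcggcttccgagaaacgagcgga
Of the 10 genes, 7 had a window in the RefSeq table, and Chrna2, Chrna6 and Chrnb3 had none. The bases just after the Chrna5 start nearer Chrna3 were not found in its RefSeq-linked GENCODE transcript, while those after its other start were. The Chrna5 bin at the 5′ end held 1 count over the mutants and 1 over the controls. Which start was in use was not tested. The Chrna3 window held 1 GGGCGG match and 3 CANNTG matches, of which the pair at its 5′ edge overlap. The Chrnb4 window held no GGGCGG match and 2 CANNTG matches, 1 of them CAGCTG. The Chrna5 windows held 0 and 4 GGGCGG matches and 2 CANNTG matches each. Across 32851 windows of all genes, 35.7% held GGGCGG, 72.3% held CANNTG and 16.3% held CAGCTG, so these matches are common. The sequence GACCACCCA, the consensus bound by the Gli factors of Hedgehog signalling, stood in 0 of the 8 windows of the listed genes and in 0.253% of all windows. At so low a rate, 0 matches in 8 windows would be usual for any genes, so nothing is read from it. GC content was 64.3% for Chrna3, 63.0% for Chrnb4, and 41.3% and 65.0% for the Chrna5 windows, against a median of 52.7%. A match is a stretch of letters and no evidence of binding.

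Chrna3 and Chrnb4 were higher in the mutant cerebella, Chrna5 was not, and the subunit genes at other loci were level with the controls or below them. Across all 15789 genes that passed a filter on low counts, edgeR's quasi-likelihood test with Benjamini-Hochberg adjustment called 0 genes between mutants and controls (0%), with 1995 genes at an unadjusted p under 0.05, and DESeq2 called 47 (0.298%). Of the 9 listed genes that passed the filter, Chrna3 and Chrnb4 had every mutant library above every control library, as had 3.6% of all genes tested. None of the 9 had every mutant below every control, as had 2.96% of all genes. DESeq2's calls included Chrna3 and Chrnb4. The genes were listed for this contrast, so nothing is read from these counts.

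Chrna3, the alpha subunit that carries the agonist site in ganglionic receptors, had 52.0, 58.2, 68.1 and 86.1 CPM in mutants 1 to 4, against 36.5, 41.3, 43.6 and 47.6 CPM in controls 1 to 4. The groups did not overlap, although mutant 1 lay close above control 4. The level averaged 66.1 ± 14.9 CPM in mutants and 42.2 ± 4.63 CPM in controls (SD, n = 4 each), a log2 fold change of 0.65 (SE 0.15). It was 0.50 among the P libraries and 0.76 among the R libraries.

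Chrnb4, the beta subunit that most often pairs with alpha3, had 16.3, 21.7, 22.2 and 32.9 CPM in mutants 1 to 4, against 7.43, 9.21, 11.2 and 11.4 CPM in controls 1 to 4. All mutants lay clear of all controls, with mutant 4 the highest. The means were 23.3 ± 6.96 CPM in mutants and 9.80 ± 1.86 CPM in controls (SD, n = 4 each), a log2 fold change of 1.25 (SE 0.21). The difference was of like size among the P libraries, at 1.19, and among the R libraries, at 1.29.

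Chrna5, which lines up tail to tail with Chrna3 and encodes an accessory subunit, had 3.98, 2.92, 2.30 and 2.42 CPM in mutants 1 to 4, against 2.79, 4.37, 3.24 and 2.49 CPM in controls 1 to 4. The groups overlapped over most of their range. The means were 2.90 ± 0.767 CPM in mutants and 3.22 ± 0.826 CPM in controls (SD, n = 4 each), a log2 fold change of -0.15 (SE 0.24), from 276 counts over the 4 mutants and 308 over the 4 controls.

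**Figure D1:**
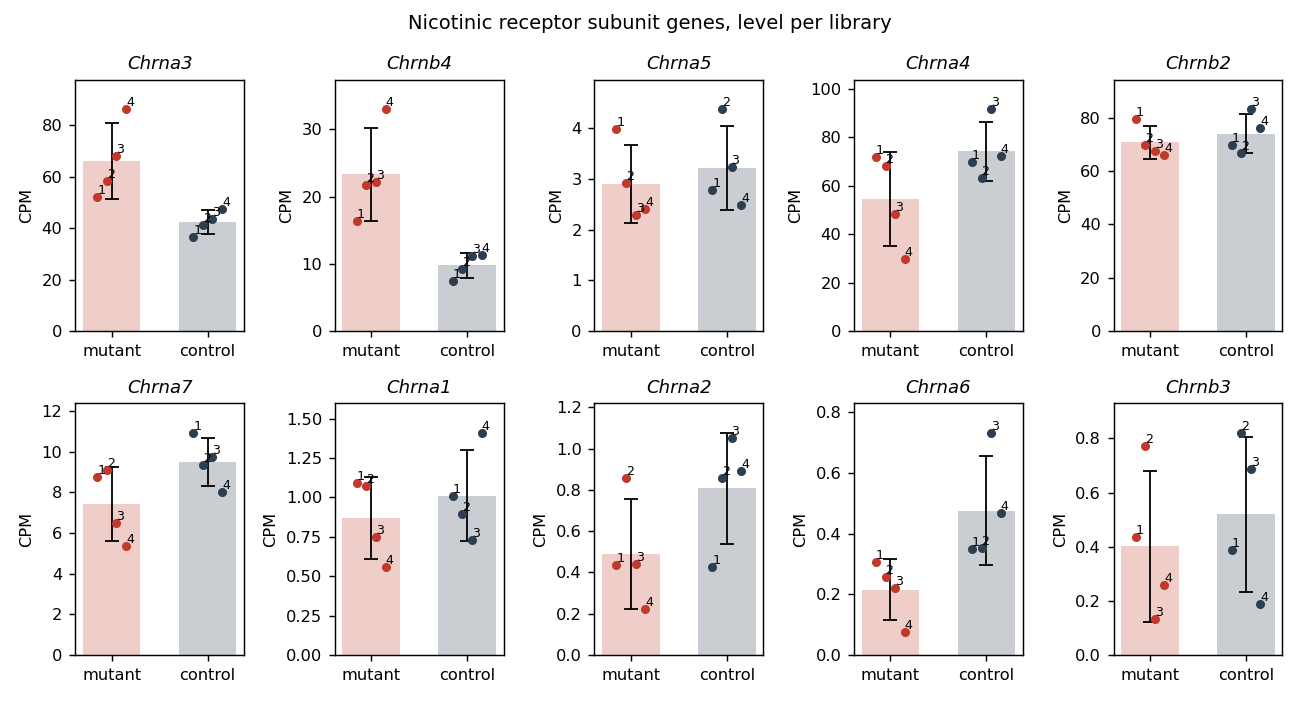
Level of each listed subunit gene in CPM (y axis, from 0, a separate scale per gene) in the 4 mutant and 4 control libraries. Points are libraries with their numbers, bars are means and error bars the SD. Chrna3 (66.1 against 42.2 CPM) and Chrnb4 (23.3 against 9.80 CPM) are the genes among the 9 passing the count filter whose groups do not overlap.

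Among the 3 nearest protein-coding genes on each side of the cluster, those that passed the count filter had smaller changes than Chrna3 and Chrnb4. Psma4, a proteasome subunit gene next to Chrna5, averaged 135 ± 16.7 CPM in mutants and 137 ± 24.6 CPM in controls (SD, n = 4 each), a log2 fold change of -0.02 (SE 0.14). Ube2q2, which encodes a ubiquitin-conjugating enzyme and follows Chrnb4, averaged 58.1 ± 5.07 CPM in mutants and 55.2 ± 4.24 CPM in controls (SD, n = 4 each), a log2 fold change of 0.07 (SE 0.10). Fbxo22, Hykk and Nrg4 had log2 fold changes of 0.03, 0.23 and 0.24, all 3 with overlapping groups, and AY074887 did not pass the count filter. The log2 fold change of Psma4 was -0.38 among the P libraries and 0.35 among the R libraries.

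Chrna4, the alpha subunit of the common brain receptor, had 72.1, 68.2, 48.5 and 29.8 CPM in mutants 1 to 4, against 69.7, 63.5, 91.6 and 72.4 CPM in controls 1 to 4. Mutants 1 and 2 lay within the control range and mutants 3 and 4 below it. The means were 54.7 ± 19.5 CPM in mutants and 74.3 ± 12.1 CPM in controls (SD, n = 4 each), a log2 fold change of -0.44 (SE 0.24). It was 0.07 among the P libraries and -1.07 among the R libraries.

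Chrnb2, the partner of alpha4, differed little between the groups. It had 79.6, 69.8, 67.4 and 66.1 CPM in mutants 1 to 4, against 69.9, 66.9, 83.1 and 76.3 CPM in controls 1 to 4, with overlapping groups and a log2 fold change of -0.07 (SE 0.10). Chrna7, whose product forms channels of alpha7 alone, had 8.75, 9.11, 6.50 and 5.35 CPM in mutants 1 to 4, against 10.9, 9.33, 9.73 and 8.03 CPM in controls 1 to 4. Its R mutants lay below every control and its P mutants within the control range, and the log2 fold change was -0.36 (SE 0.19).

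The remaining 4 listed genes had low counts. Chrna1, the alpha subunit of muscle receptors, averaged 0.869 ± 0.260 CPM in mutants and 1.01 ± 0.288 CPM in controls (SD, n = 4 each). Of its bins, the one at the 3′ end held 69 counts in mutants and 78 in controls, and no other bin held more than 16 in either group. Chrna2 averaged 0.490 ± 0.266 CPM in mutants and 0.807 ± 0.267 CPM in controls (SD, n = 4 each). Chrnb3 averaged 0.401 ± 0.278 CPM in mutants and 0.520 ± 0.286 CPM in controls (SD, n = 4 each). Chrna6, which combines with beta3 in dopamine neurons and is adjacent to Chrnb3 in the genome, did not pass the count filter, with 20 counts over the mutants and 44 over the controls. Its 4 mutant libraries, at 7, 6, 5 and 2 counts, lay below its controls, at 9, 9, 16 and 10 counts, in CPM as well. At such depth a moderate difference could not be seen.

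All 6 listed genes from other loci that passed the filter had a lower mean in mutants, with a median log2 fold change of -0.38, and in all 6 the groups overlapped. Over all genes tested the median was 0.01 and 52.3% were higher in mutants. Of the 6 further nicotinic subunit genes in the tables, Chrnb1, a muscle-type beta subunit, was the only one to pass the filter, at 2.65 ± 0.531 CPM in mutants and 2.13 ± 0.457 CPM in controls (SD, n = 4 each). The others belong to receptors of muscle and of cochlear hair cells. Chrna9 had 0 counts over the mutants and 3 over the controls, Chrna10 had 8 and 9, Chrnd had 5 and 2, and Chrne had 7 and 11. Chrng had 0 counts in every library, which allows up to 3 counts in each.

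Levels of different genes were compared after division by the length of the RefSeq-linked GENCODE transcript, which is of another annotation than the authors used. In mutants the order ran from Chrna3, at 15.2 ± 3.41 CPM per kb (SD, n = 4), through Chrna4, at 12.0 ± 4.27, Chrnb2, at 11.0 ± 0.959, Chrnb4, at 6.26 ± 1.87, and Chrna7, at 3.57 ± 0.867, to Chrna5, at 1.55 ± 0.409. In controls Chrna4 led at 16.3 ± 2.65 CPM per kb (SD, n = 4), ahead of Chrnb2, at 11.6 ± 1.13, Chrna3, at 9.69 ± 1.06, Chrna7, at 4.57 ± 0.574, Chrnb4, at 2.63 ± 0.498, and Chrna5, at 1.72 ± 0.440. Within the mutants, the means of the first 3 genes in that order did not differ beyond their spread, and the order varied by library. Chrna4 stood above Chrna3 in mutants 1 and 2, at 15.8 and 14.9 against 11.9 and 13.4 CPM per kb. It stood below Chrna3 in mutants 3 and 4, at 10.6 and 6.53 against 15.6 and 19.7. Within the controls, Chrnb2 and Chrna3 lay close, and the ranges of Chrnb4 and Chrna5 overlapped. The 4 genes of low count stood at or below 0.231 CPM per kb in both groups.

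The division of counts among the 10 genes differed between the groups. Chrna3, Chrna5 and Chrnb4 together held 30.8, 35.6, 42.8 and 54.3% of the counts of the 10 genes in mutants 1 to 4, against 23.4, 27.8, 23.6 and 27.8% in controls 1 to 4. The groups did not overlap. The 95% exact Clopper-Pearson interval of a single library was 29.5 to 32.0% in mutant 1 and 26.5 to 29.1% in control 4. Such intervals rest on 4709 to 6019 counts per library and cover counting error only, not the difference between animals. The mean share was 40.8 ± 10.2% in mutants and 25.7 ± 2.46% in controls (SD, n = 4 each). The summed level of the 10 genes was 227 ± 8.57 CPM in mutants and 216 ± 22.5 CPM in controls (SD, n = 4 each), with overlapping groups.

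Ratios between subunit genes of a library are free of library scaling. For every 100 Chrna3 counts there were 31.4, 37.3, 32.6 and 38.3 Chrnb4 counts in mutants 1 to 4, against 20.4, 22.3, 25.7 and 23.9 in controls 1 to 4. All mutants lay above all controls. For every 100 Chrna4 counts there were 72.1, 85.4, 140 and 289 Chrna3 counts in mutants 1 to 4, against 52.3, 65.1, 47.6 and 65.7 in controls 1 to 4. The mutants again lay above the controls, and mutants 3 and 4 stood apart from mutants 1 and 2. Chrnb4 counts for every 100 Chrnb2 counts ran from 20.5 to 49.9 in mutants and from 10.6 to 14.9 in controls. Chrna4 for every 100 Chrnb2 overlapped, from 45.1 to 97.7 in mutants and from 94.9 to 110 in controls.

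**Figure D2:**
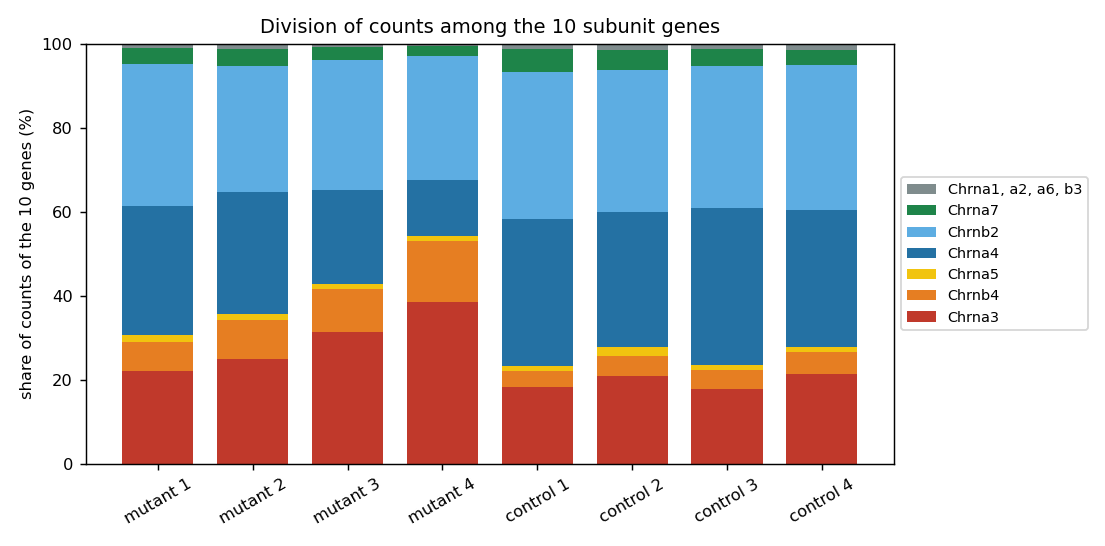
Share of the summed counts of the 10 subunit genes (y axis, percent) held by each gene, in mutants 1 to 4 and then controls 1 to 4. Stacked from the bottom, Chrna3, Chrnb4 and Chrna5 take 30.8 to 54.3% in the mutants and 23.4 to 27.8% in the controls.

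By group means, exon bins had the same direction along the length of each of the main genes. They come from the libraries for which the genes were listed, so this too is a description. All 6 bins of Chrna3 had a higher mean in mutants, by ratios of 1.39 to 1.57, and all 6 bins of Chrnb4 did, by ratios of 2.12 to 2.43. Every mutant lay above every control in 1 of the 6 Chrna3 bins and in 3 of the 6 Chrnb4 bins. In mutant 1 the Chrna3 bin at the 5′ end had 1.18 CPM, below every control, at 1.37 to 1.86 CPM. All 6 bins of Chrna4 were lower in mutants, with ratios of 0.725 to 0.857, as were all 6 of Chrnb2, at 0.796 to 0.978, and all 10 of Chrna7, at 0.549 to 0.807. A higher level along the whole gene leaves the use of its bins unchanged, and bin use is a measure that the choice of genes did not rest on. The edgeR test of bin use called 0 of the 36 tested bins of 6 listed genes, with 0 of them at an unadjusted p under 0.05, and 18 of 152302 bins overall (0.0118%). No other tool was run for bin use.

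**Figure D3:**
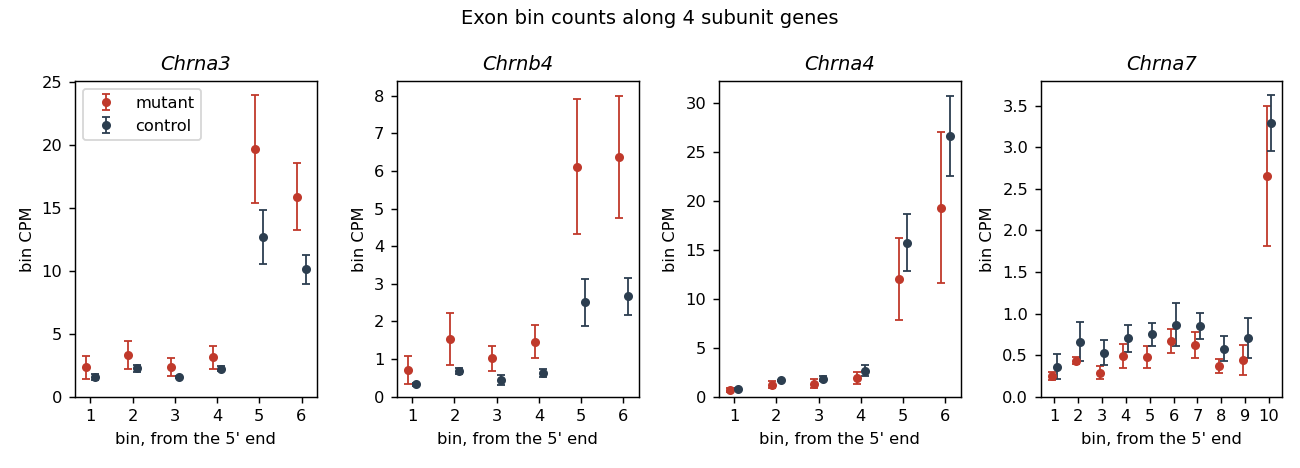
Bin level in CPM of bin counts (y axis, from 0) for the bins of 4 subunit genes in order from the 5′ end (x axis), as mean and SD over 4 mutant and 4 control libraries. Mutant means lie above control means in all 6 bins of Chrna3 and of Chrnb4, and below them in all bins of Chrna4 and Chrna7.

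Coverage leaned to the 3′ end. Bins of the 5′ side of Chrnb4 held 12.3% of its bin counts in mutant 1 and from 18.8 to 22.5% in the other mutants, against 15.7 to 24.5% in controls. For Chrna3 the share was 12.9% in mutant 1 and 16.7 to 19.6% in the other mutants, against 14.9 to 21.6% in controls. Over 8158 well-covered genes the median share was 35.2% in mutant 1, the lowest of the 8 libraries, and up to 37.5% in the others. Mutant 1 was also the mutant with the lowest Chrna3 and Chrnb4 levels, and the part of 5′ coverage in that was not tested.

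The title letter gave a comparison that had played no part in choosing the genes. With genotype in the edgeR quasi-likelihood fit, 3 of 15789 genes were called between R and P libraries (0.019%), with 4097 at an unadjusted p under 0.05. None of the 9 listed genes was called. Chrna3 was higher in R libraries by a log2 fold change of 0.36 (SE 0.10), with an edgeR adjusted p of 0.082, and Chrnb4 by 0.49 (SE 0.15), with an edgeR adjusted p of 0.093. DESeq2 gave them adjusted p of 0.029 and 0.036. It called 1696 of the 15789 genes that passed the filter, so such calls were common with that test. Chrna5 had -0.43 (SE 0.20) and Chrna7 -0.39 (SE 0.14), with edgeR adjusted p of 0.20 and 0.13. Entries outside gene counts made up 25.9 and 26.2% of the R mutants and 33.6 and 34.3% of the P mutants, and 24.8 and 26.3% of the R controls against 30.1 and 31.2% of the P controls, and their part in these values was not tested.

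Whether the genotype difference itself varied with the letter was tested as an interaction. Over all 15789 genes 505 were called (3.2%), with 3551 at an unadjusted p under 0.05 by edgeR. Of the 9 listed genes 0 were called, with 2 at an unadjusted p under 0.05 (Chrna4 and Chrnb2) by edgeR. Unadjusted values of that size were thus common across all genes. Chrna4 came nearest, with an interaction of -1.14 on the log2 scale and an edgeR adjusted p of 0.071, and Chrnb2 had -0.38 with an edgeR adjusted p of 0.15. For Chrna3 the interaction was 0.26 (adjusted p = 0.45, edgeR) and for Chrnb4 it was 0.10 (adjusted p = 0.88, edgeR). DESeq2 called 1149 genes for the interaction.

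Genes that make, transport and break down acetylcholine were mostly lower in mutants, and 0 of 7 passed edgeR's threshold. Of the 7, 6 had a lower mean, with a median log2 fold change of -0.90. Slc18a3, the vesicular acetylcholine transporter, had 6.52, 7.99, 3.45 and 0.335 CPM in mutants 1 to 4, against 14.4, 9.33, 17.5 and 13.4 CPM in controls 1 to 4. Chat, the enzyme of acetylcholine synthesis, had 1.97, 2.15, 0.840 and 0.0372 CPM in mutants 1 to 4, against 2.71, 2.50, 3.11 and 2.63 CPM in controls 1 to 4. Both were lower in every mutant than in any control, with the least in mutant 4. Ache, acetylcholinesterase, averaged 54.4 ± 15.9 CPM in mutants and 81.5 ± 12.5 CPM in controls (SD, n = 4 each), also without overlap. Bche, butyrylcholinesterase, was the 1 gene of this list with a higher mean in mutants.

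The genes for receptor assembly factors and for Ly6 proteins that bind nicotinic receptors were 11 in the tables. Of these, 10 had a lower mean in mutants, with a median log2 fold change of -0.28, and 0 of 11 were called by edgeR. Those of largest change were Lypd6b, at -0.81 (SE 0.37), and Lypd1, at -0.56 (SE 0.24), Ly6 family members that both had overlapping groups. The chaperone genes Ric3 and Tmem35, at -0.08 and -0.28, overlapped too. All 5 muscarinic receptor genes had a lower mean in mutants, with a median of -0.50 and 0 called by edgeR. Among them Chrm2 had no overlap, at 5.58 ± 2.29 CPM in mutants and 8.01 ± 0.309 CPM in controls (SD, n = 4 each).

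**Figure D4:**
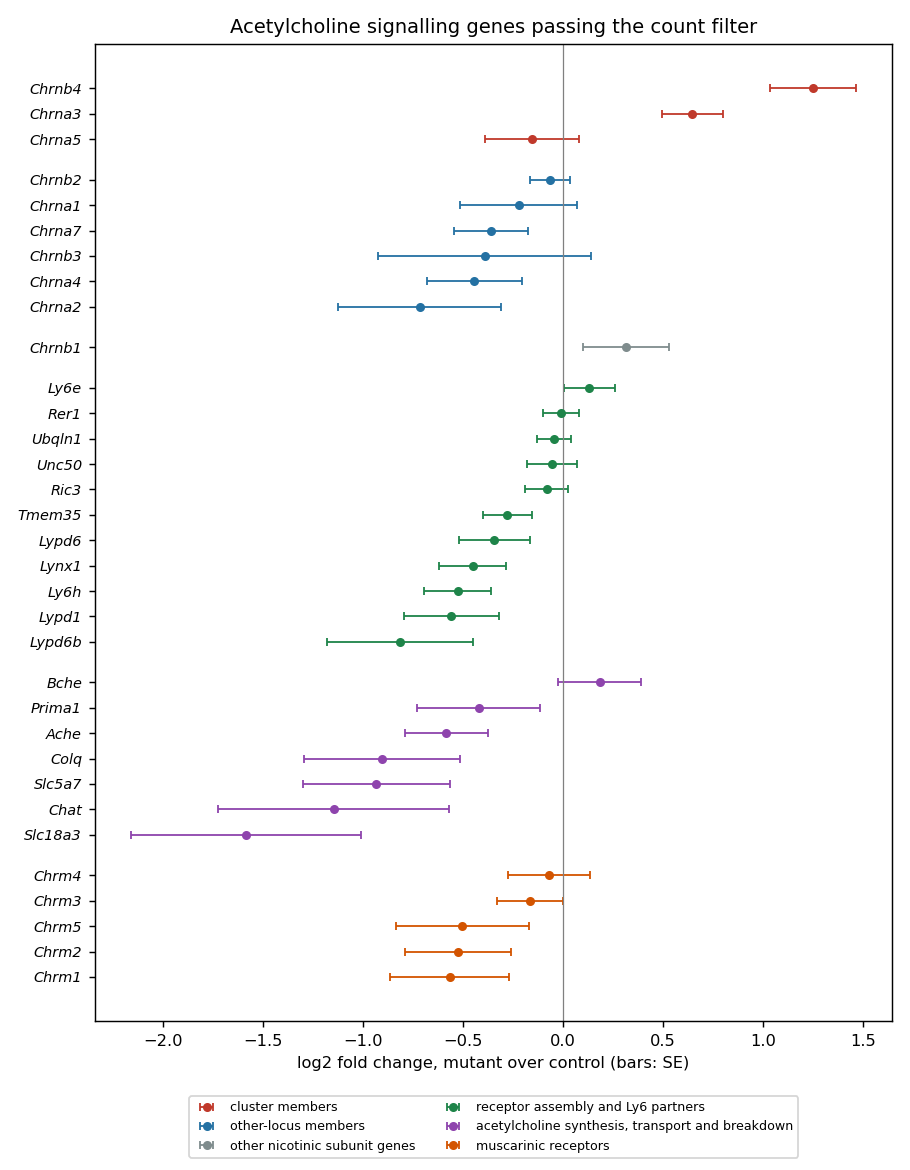
log2 fold change of mutant over control (x axis) with its SE for genes of acetylcholine signalling that passed the count filter, grouped by list. Chrnb4 (1.25) and Chrna3 (0.65) lie farthest right, and Slc18a3 (-1.59) lies farthest left.

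Of 7 factors reported in the literature at the promoters of the cluster, 4 had a higher mean in mutants and 0 were called by edgeR. Sox10, which is also a marker of the oligodendrocyte lineage, averaged 36.0 ± 7.37 CPM in mutants and 54.2 ± 5.20 CPM in controls (SD, n = 4 each), without overlap. Hnrnpk averaged 764 ± 88.4 CPM in mutants and 654 ± 34.0 CPM in controls (SD, n = 4 each), also without overlap.

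Markers of granule cell precursors, the cells in which Math1-Cre acts, moved with Chrna3 and Chrnb4 across the libraries. All 11 had a higher mean in mutants, with a median log2 fold change of 0.45, and 2 of them, Mki67 and Zic4, had no overlap. Mki67 also marks dividing cells of any type. Their mean log2 level, less the control mean, was 0.04, 0.31, 0.50 and 0.99 in mutants 1 to 4, against -0.15, -0.08, 0.06 and 0.17 in controls 1 to 4. On the same scale Chrna3 stood at 0.31, 0.47, 0.69 and 1.03 in mutants 1 to 4, against -0.20, -0.03, 0.05 and 0.18 in controls 1 to 4. Both measures put the 8 libraries in an order that differs only among mutant 1 and controls 3 and 4. Chrnb4 stood at 0.75, 1.16, 1.19 and 1.76 in mutants 1 to 4, so that in mutant 1 it lay above the controls, whose highest was 0.23, while the marker level lay within them. With the marker level as a covariate, the log2 fold changes were 0.25 for Chrna3 and 0.71 for Chrnb4, and edgeR called neither. The marker level was itself higher on average in mutants and highest in mutant 4, so these values are a description. The part of granule precursor content in either was not tested.

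Markers of other cells moved as well. All 6 choroid plexus markers, Ttr, Cldn2, Otx2, Folr1, Kl and Aqp1, had every mutant above every control, with a summed level of 3330 to 5862 CPM in mutants and 1313 to 3071 CPM in controls. All 8 tested markers of cranial motor and visceral neurons, cells known for Chrna3 and Chrnb4, had a lower mean in mutants. Chat, Slc18a3 and Slc5a7 are among them and are also in the list of acetylcholine genes above, so the lists are not separate observations. Their summed level was 9.55 to 76.3 CPM in mutants and 107 to 142 CPM in controls. Prph, a neurofilament-like protein of such neurons, averaged 12.5 ± 9.10 CPM in mutants and 54.7 ± 7.64 CPM in controls (SD, n = 4 each), and Mnx1 had at most 1 count in any library. The part of these cells in the Chrna3 and Chrnb4 levels was not tested.

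Chrna4 and Chrna7 were lowest in mutant 4, in which the Hox genes were lowest. The Hox mean log2 level, less the control mean, was 0.18, -1.49, -0.54 and -4.17 in mutants 1 to 4, against -0.33, -0.41, 0.39 and 0.35 in controls 1 to 4. In mutant 2, the next lowest in Hox level, Chrna4 and Chrna7 lay within the control range, at 68.2 and 9.11 CPM. Mutant 3 had a higher Hox level than mutant 2 but less of both genes, at 48.5 and 6.50 CPM. All 10 Hox genes had a lower mean in mutants, and 1, Hoxb2, had no overlap. With the Hox level as a covariate, the log2 fold changes were 0.44 for Chrna3, 0.94 for Chrnb4 and -0.08 for Chrna4. Without it they were 0.65, 1.25 and -0.44, and edgeR called 0 genes in either fit. The Hox level was itself lower on average in mutants and lowest in mutant 4, so these values are a description. Without mutants 2 and 4, the libraries with Y-linked counts, Chrna3 had 0.50, Chrnb4 0.97 and Chrna4 -0.30. Among other marker lists, 5 of 6 for habenula and interpeduncular neurons and 6 of 9 for monoamine neurons had a lower mean in mutants, with overlap in each gene. Of the GABAergic interneuron markers 6 of 6 and of the oligodendrocyte markers 7 of 8 were lower, and of the Purkinje cell markers 7 of 7 were higher. Of 6 tested skeletal muscle markers 4 were lower. The part of tissue composition in the subunit levels was not tested further.

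**Figure D5:**
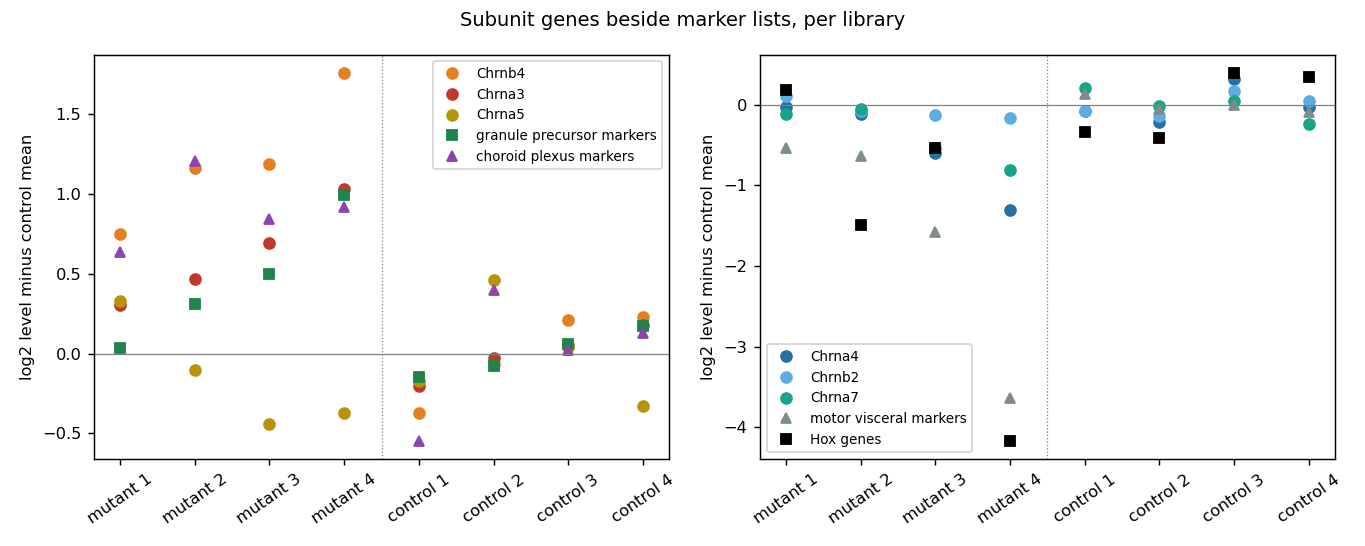
log2 level of subunit genes and mean log2 level of marker lists, less the control mean (y axis), in mutants 1 to 4 and controls 1 to 4 (x axis). In the left panel Chrnb4 reaches 1.76 and Chrna3 1.03 in mutant 4, where granule precursor markers reach 0.99. In the right panel Hox genes fall to -4.17 in mutant 4 and -1.49 in mutant 2.

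The genes whose log2 level followed the summed level of Chrna3, Chrna5 and Chrnb4 most closely over the 8 libraries were Etv5, Akna, Kctd14, Ctnna1 and Elf2, with Pearson r of 0.988 to 0.981. These are the top 5 of the 15789 genes tested, with Chrna3, Chrna5 and Chrnb4 themselves left out of the ranking. They were chosen for that likeness, and the libraries share genotype, letter and tissue content, so r is a description. Etv5, which encodes an ETS family transcription factor, had 115, 148, 159 and 241 CPM in mutants 1 to 4, against 78.3, 86.7, 105 and 106 CPM in controls 1 to 4. All mutants lay above all controls.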

How the data were processed

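Each of 8 polyA libraries, 1 per cerebellum, came with deposited counts per gene and counts per exon bin, whole numbers that the authors had not normalized. TopHat, HTSeq, DESeq2 and build mm9 are named per the submitters' processing notes, without versions. The sources used here do not give the annotation or strand setting. The 5 summary lines of a gene table and the 4 of a bin table were left out. In R 4.3.3, genes passing filterByExpr were tested with edgeR 4.0.16 (TMM factors 0.986 to 1.01, quasi-likelihood test, two-sided, Benjamini-Hochberg threshold 0.05), with genotype alone, with the title letter added, and with their interaction. SE values come from the log2 fold change and its F statistic. Bin use was tested with diffSpliceDGE. DESeq2 1.42.0 was an alternative, with other scalings, filters, covariates and left-out libraries. Library pairs within a group differed by more than sampling error (chi-square over its degrees of freedom, 7.42 to 81.0). The steps were tested on simulated data.

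log2 levels used a prior count of 2. The share of the 5′ side of a gene is the share of its bin counts in the first part of its bins, for genes with at least 6 bins and a mean of 500 counts. Likeness is Pearson's r of log2 CPM with the summed cluster level. A list of 13 neighbours of the cluster held 12 genes in the tables, 4 with a higher and 8 with a lower mean in mutants; 4 of them (Adamts7, Morf4l1, Ctsh and Rasgrf1) are far from it in RefSeq order, so the report uses the nearest 3 on each side, chosen after that was seen. Named genes were the 10 members, the 6 further subunit genes, Sufu, the 5 most alike genes and, of each other list, up to 4 without overlap or else the 2 of largest change; not all are printed, and others named were chosen after their values were seen. The members, lists and designs were chosen with earlier results of these data known.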

Additional observations from a re-analysis of the deposited data

Results flagged for a closer look

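In the controls, the share of the counts of the 10 subunit genes held by Chrna3, Chrna4, Chrnb2, Chrnb4 and Chrna7 together was 97.5, 96.3, 97.4 and 97.5% in controls 1 to 4, so control 2 stood apart, with a gap to its nearest neighbour of 0.870 of the whole range. In mutants 1 to 4 the share was 97.3, 97.5, 98.2 and 98.4%. Such a gap arises by chance in about 1 in 20 groups, and 46 groups were examined.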

How the results depend on the processing

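Chrna3 was higher in mutants under all 18 settings, by 0.25 to 0.74 on the log2 scale, and Chrnb4 by 0.71 to 1.38. For each of them the adjusted p was under 0.05 in 1 of the 18 settings, the DESeq2 test. Both genes were listed for this contrast in these libraries, so the kept direction is a description. Chrna4 was lower in 17 of 18. The mutant against control count of 0 genes became 47 with DESeq2, 1 with granule precursor markers as a covariate and 1 without mutants 1 and 4, an alternative chosen after seeing the data; leaving out each library gave 0 to 1. The letter count of 3 became 1696 with DESeq2, 0 with its size factors in edgeR, 6 with total count scaling, 196 without a filter and 0 with at least 10 counts in every library; leaving out each library gave 0 to 1. The interaction count of 505 became 1149 with DESeq2. Bins called, 18, ranged from 1 (without mutant 2) to 20. The cluster share difference of 15.2 points ranged from 10.7 (without mutant 4) to 18.5. With the Hox level as a covariate Chrna1 turned to 0.040 and Chrnb2 to 0.020. With granule precursor markers Chrna5 turned to 0.19, Chrna1 to 0.11, Chrna4 to 0.010, Chrna7 to 0.020, Chrnb2 to 0.0028 and Chrnb3 to 0.22. Without control 2 Chrna5 turned to 0.013, in a range from -0.35 over left-out libraries. Between letters, Chrna2 turned to 0.29 without mutant 2 and 0.21 without mutant 4, in a range from -0.41, and Chrnb2 to -0.039 without control 2 and -0.032 without control 3. For each of these the cause was not tested. Low counts limit Chrna1, Chrna2, Chrna6 and Chrnb3. No paired analysis was possible because the labels give no replicate numbers shared between the groups.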
